A study of Mus musculus with 6 samples.

Results

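The genes described are 10 members of the BCL2 family, the proteins that set the threshold of the mitochondrial route of cell death. They were taken by symbol: a probe set counted where the platform annotation gave it exactly 1 gene and that gene was Bcl2, Bcl2l1, Mcl1, Bcl2l2, Bak1, Bok, Bad, Bid, Bcl2l11 or Bmf. This gave 80 of the 241576 probe sets in the table, and 10 of its 20352 genes. The arrays held RNA of mouse bone marrow cells sorted as lineage negative cells positive for c-Kit and Sca-1 and lacking CD34, the gate for haematopoietic stem cells. There were 3 arrays of controls, for which the labels give no allele, and 3 of mice with floxed beta-catenin alleles that were positive for vav-Cre, called floxed arrays. The vav promoter drives the Cre recombinase in blood-forming cells and their progeny. Strain, age and sex, the alleles the controls carried, and whether a replicate was 1 animal or a pool are not given in the sources used here. P-values therefore measure only how far these samples spread, and that spread may be technical.

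In the mitochondrial route, the effectors BAK and BAX, and in some cells BOK, open the outer mitochondrial membrane, cytochrome c leaves the organelle and the caspases are activated. BCL2, BCL-XL (the product of Bcl2l1), MCL1 and BCL-W (Bcl2l2) prevent this by binding the effectors and their activators. The BH3-only proteins BAD, BID, BIM (Bcl2l11) and BMF occupy or bypass the guards when growth factor, adhesion or DNA damage signals call for it. Blood stem cells are known to depend on MCL1, and forced BCL2 enlarges the stem cell pool in mice. Much of the regulation lies in protein turnover, phosphorylation and location, which arrays do not measure.

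Promoter sequences from RefSeq (GRCm38.p6) were found for all 10 members, in 16 windows of the 250 bases before a start site. The windows were searched on both strands for CTTTGA, the core bound by the TCF and LEF partners of beta-catenin, for TGTTTAC, bound by FoxO factors, and for GGGCGG, the GC box bound by Sp1. CTTTGA was in 0 of the 16 member windows and in 13.8% of all 32851 windows of that length. TGTTTAC was in 1 of 16, against 3.17% of all windows, and GGGCGG in 8 of 16, for 7 of the 10 genes, against 32.7%. The member windows held 47.6 to 74.8% G and C, against a median of 52.4% over all windows. The motif shares were not adjusted for base content. The first sequence is the window with the FoxO motif, upstream of Bcl2l11, whose transcription FoxO3 is known to drive (chr2:128125788-128126037, plus strand). Its capitals mark the motif, read here on the opposite strand, from 227 to 221 bases before the start. The second is that of Bcl2, the gene of the 1 member probe set with an unadjusted limma p under 0.05 (chr1:106714291-106714540, minus strand). Where a gene had more than 1 window, the one with the most matches was taken. Capitals in the Bcl2 sequence mark 7 GC boxes. None of these matches overlaps another of the motifs. A match is a run of letters and not a measured site.
Bcl2l11: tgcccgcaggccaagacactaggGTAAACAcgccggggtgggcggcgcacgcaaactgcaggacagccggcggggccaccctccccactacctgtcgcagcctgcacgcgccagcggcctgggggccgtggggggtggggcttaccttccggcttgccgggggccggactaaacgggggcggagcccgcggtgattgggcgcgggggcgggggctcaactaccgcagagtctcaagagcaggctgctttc
Bcl2: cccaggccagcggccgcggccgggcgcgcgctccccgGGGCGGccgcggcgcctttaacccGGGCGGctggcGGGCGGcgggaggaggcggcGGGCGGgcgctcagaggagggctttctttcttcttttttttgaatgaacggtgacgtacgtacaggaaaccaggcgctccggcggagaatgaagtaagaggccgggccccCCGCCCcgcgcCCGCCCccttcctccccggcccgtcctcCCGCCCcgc

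On the arrays, Ctnnb1, which encodes beta-catenin, checked the labels. Of its 16 tested probe sets 5 passed in limma, with floxed minus control differences from −6.90 to −2.51 log2. The 5 are also the only probe sets of the whole table that passed (0.00414% of 120788). In the gene test, whose values are medians over probe sets, Ctnnb1 did not pass, although it did with means over probe sets. A change on 5 of 16 probe sets can thus be missed by the gene test. The stem cell label was set against 15 marker genes, of which 14 could be tested. All 14 had a mean above the filter on dim probe sets (Slamf1 8.12 log2), but a tested gene takes its value only from probe sets above it. Tested markers of other cells were above it too, such as Ngp (11.41) and Lyz2 (11.39). The means of the 14 therefore do not check the stem cell label. Cd34 and Flt3, genes of more mature progenitors, were among the 14 (12.66 and 11.83), although the gate excludes cells with CD34. The gate acts on surface protein, which arrays do not measure, and the source of the Cd34 and Flt3 signal was not tested. Across the tested probe sets, pairs of controls correlated at 0.903 to 0.937, pairs of floxed arrays at 0.957 to 0.960 and mixed pairs at 0.923 to 0.959. The controls were thus the less alike. The values of this table are log2 signal per probe set, and signal from different probes cannot be ranked as amounts of RNA. Levels of the members are therefore compared between arrays and not between genes. A high mean served only to pick which genes of the pathway lists are named. All 10 members had probe sets above the filter, the median probe-set mean of 7.60 log2, and the value of a gene is the median of its probe sets above it.

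No BCL2 family gene differed between floxed and control stem cells beyond the spread of the arrays. In limma, 0 of 10 members passed an adjusted p of 0.05, as did 0% of all 14586 genes tested, and 0 of 10 had an unadjusted p under 0.05, against 3.7% of all genes; with no filter 1 member had such a p (Bcl2l1, against 5.22% of all genes) and with array weights 1 (Bmf, against 22.2%). The groups overlapped for every member, where they were apart for 8.44% of all genes. Differences ran from −0.19 (Bmf) to 0.22 (Bcl2l1) log2. Each member had a limma adjusted p of 0.999. A total of 7 members were higher and 3 lower, where 54.2% of all genes were higher and 45.8% lower; with quantile normalization 6 members and 45.5% of all genes were higher, and with equal array medians 6 and 46.9%, since Bok turned. The median difference was 0.075 log2 over the 10 members and 0.018 over all genes. All 10 intervals lay within 1 log2 of 0, a 2-fold change, as did those of 97.1% of all genes. The farthest bound was 0.61 log2, for Bcl2l1, so with this filter the arrays leave room for differences of up to that size in the gene values. This bound does not hold for other choices of probe sets. With no filter the differences of Bcl2l1 and Bcl2l2 were themselves 0.42 log2, and all 10 intervals lay within 1 log2 of 0. A change on a part of a gene's probe sets can be larger, as it was for Ctnnb1.

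**Figure D1:**
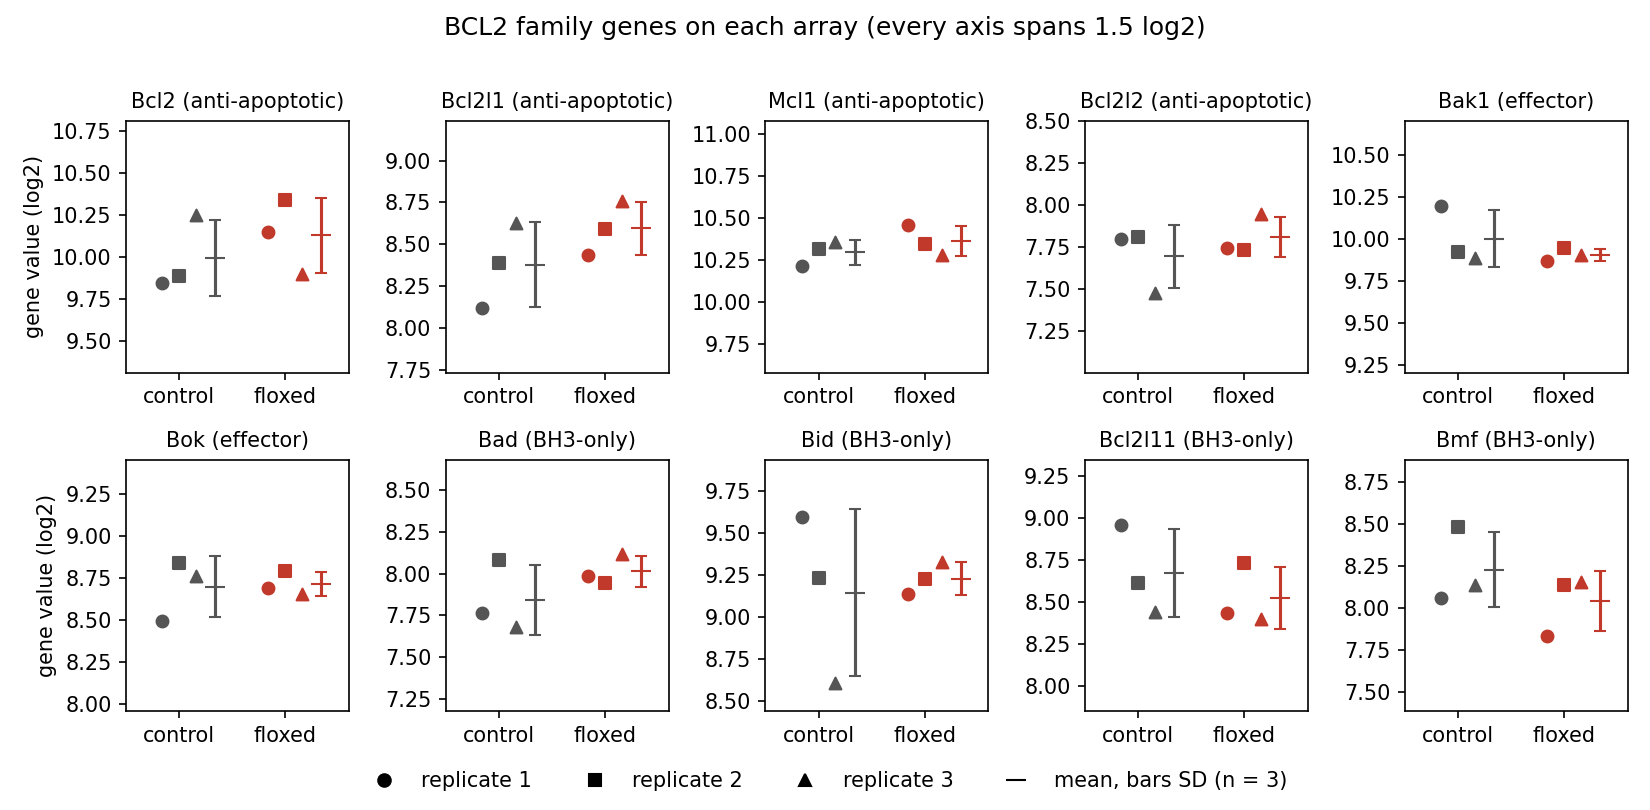
Each panel plots the log2 gene value of 1 BCL2 family member on the 3 control arrays (grey) and the 3 floxed arrays (red); symbols give the replicate, and the dash with bars is the mean ± SD (n = 3). Every vertical axis spans 1.5 log2, and in all 10 panels the groups overlap; the control points of Bid are the farthest apart, from 8.61 to 9.60.

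The 4 anti-apoptotic genes each had a slightly higher mean in floxed arrays, by 0.066 to 0.22 log2, and none passed. Bcl2, which encodes the founding member of the family, had values of 9.85, 9.89 and 10.25 log2 in controls against 10.15, 10.34 and 9.90 in floxed arrays. Floxed replicate 2 and control replicate 3 were the 2 highest arrays; below them floxed replicates 1 and 3 lay above control replicates 2 and 1. Its difference was 0.13 log2 (SE 0.16, 95% confidence interval −0.22 to 0.49); it was 0.26 without control replicate 3 and 0.029 without floxed replicate 2. Bcl2l1 encodes BCL-XL, the guard best known from late erythroid cells and platelets. Its values were 8.12, 8.39 and 8.63 in controls against 8.44, 8.59 and 8.76 in floxed arrays. Control replicates 1 and 2 lay below all floxed arrays and control replicate 3 above 2 of them. The difference was 0.22 log2 (SE 0.18, interval −0.18 to 0.61). Leaving out control replicate 1 gave 0.088 on the same 7 probe sets, and −0.013 where the filter was set again on the other 5 arrays, which added 1 probe set.

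Mcl1, whose protein turns over within a short time and on which blood stem cells depend, was the most even of these genes. It read 10.22, 10.32 and 10.36 log2 in controls against 10.46, 10.35 and 10.28 in floxed arrays. The 6 arrays lay within 0.245 log2 of each other and the groups were interleaved. The difference of Mcl1 was 0.066 log2 (SE 0.12, interval −0.20 to 0.33), with the narrowest interval of the 10 members, 0.264 to either side, and 0.018 to 0.11 with 1 array left out. Bcl2l2, which encodes BCL-W, read 7.80, 7.81 and 7.48 in controls against 7.75, 7.73 and 7.94 in floxed arrays. Control replicate 3 was the low array and floxed replicate 3 the high one. Its difference was 0.11 log2 (SE 0.19, interval −0.31 to 0.54), and without control replicate 3 it was 0.0049.

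The 2 effectors measured here spread little over the floxed arrays, and neither passed. Bak1 encodes BAK, which sits in the outer mitochondrial membrane. It read 10.20, 9.92 and 9.89 log2 in controls against 9.87, 9.94 and 9.90 in floxed arrays. Only control replicate 1 stood off, above all others; the difference was −0.096 log2 (SE 0.13, interval −0.39 to 0.20) and 0.00059 without that array. Bok, a relative of BAK found mainly at the endoplasmic reticulum, read 8.49, 8.84 and 8.76 in controls against 8.69, 8.79 and 8.66 in floxed arrays. All 3 floxed values lay inside the control range, and the difference was 0.014 log2 (SE 0.16, interval −0.33 to 0.36). Bax, the second main effector, was not analysed here.

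The 4 BH3-only genes were split, with Bad and Bid slightly higher and Bcl2l11 and Bmf slightly lower in floxed arrays, none passing. Bad, whose protein is held inactive by phosphorylation under growth factor signals, read 7.77, 8.08 and 7.68 log2 in controls against 7.98, 7.94 and 8.12 in floxed arrays. Floxed replicate 3 was the highest and control replicate 2 came next, so the groups overlapped. The difference of Bad was 0.17 log2 (SE 0.18, interval −0.24 to 0.58), with 0.29 without control replicate 2 and 0.090 without control replicate 3. Bcl2l11 encodes BIM, a direct activator that rises on cytokine withdrawal. It read 8.96, 8.62 and 8.44 in controls against 8.44, 8.74 and 8.40 in floxed arrays. Control replicate 1 was again the array that stood off, at the top. The difference of Bcl2l11 was −0.15 log2 (SE 0.18, interval −0.55 to 0.26). It was −0.0033 without control replicate 1 and −0.26 without control replicate 3. Bmf, whose product links the cytoskeleton to BCL2 proteins when cells lose attachment, read 8.06, 8.48 and 8.14 in controls against 7.83, 8.14 and 8.15 in floxed arrays. Control replicate 2 was high and floxed replicate 1 low, with the other 4 arrays between 8.06 and 8.15. The difference of Bmf was −0.19 log2 (SE 0.19, interval −0.60 to 0.23), and without control replicate 2 it was −0.059.

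Bid varied more between control arrays than any other member. The protein is cleaved by caspase 8 and so joins the death receptor route to mitochondria. Bid read 9.60, 9.23 and 8.61 log2 in controls, a range of 0.990, and 9.14, 9.23 and 9.33 in floxed arrays, a range of 0.192. All floxed values lay inside the control range; the SD was 0.50 in controls against 0.10 in floxed arrays (n = 3 each). Its difference was 0.083 log2 (SE 0.22, interval −0.41 to 0.57), and without control replicate 3 it was −0.19. On 5 of the 7 Bid probe sets control replicate 1 was above control replicate 3. The mean of 7 of 8 B cell markers (Cd79a, Cd79b, Ms4a1, Pax5, Ebf1, Vpreb1 and Igll1), as a deviation from each gene's mean over the arrays, was 0.78, 0.21 and −0.95 log2 in controls against −0.28, −0.14 and 0.39 in floxed arrays. Single markers differed. Cd79a, Ms4a1, Pax5, Ebf1 and Igll1 were highest on control replicate 1, Cd79b on floxed replicate 3 and Vpreb1 on control replicate 3. Bid of control replicate 2 and floxed replicate 2 was equal to 2 decimals. Unrounded, the 6 arrays stood in the same order by Bid and by the mean of the 7 markers. This pair was chosen after the values were seen: of 60 pairs of a member and a marker list, it was the 1 with the same array order. The part of B-lineage cells in the Bid values was not tested, and in a sorted population fewer cells of a type and less RNA per cell cannot be told apart. Without detection calls, no marker could be shown to be absent.

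**Figure D2:**
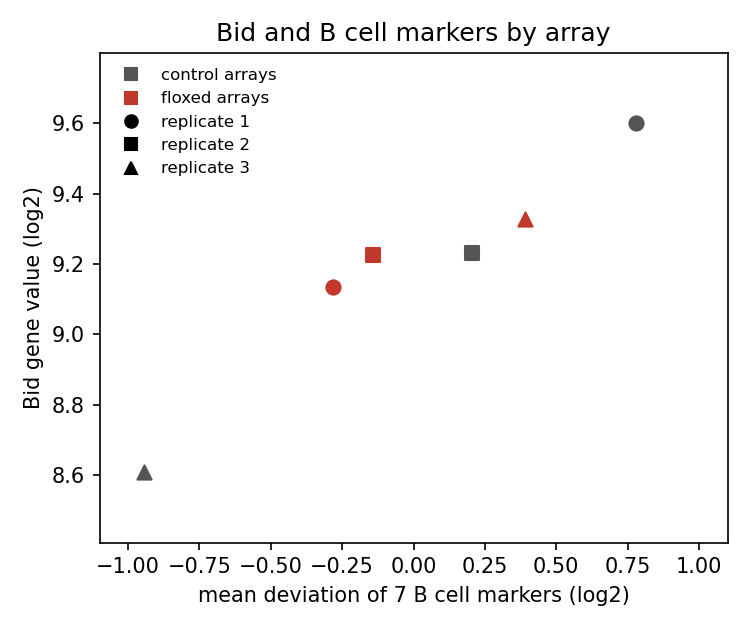
Each point is 1 array, with the mean deviation of 7 B cell markers in log2 on the horizontal axis and the log2 gene value of Bid on the vertical axis; grey points are controls, red points floxed arrays, and symbols give the replicate. Control replicate 3 (−0.95, 8.61) and control replicate 1 (0.78, 9.60) are at the ends and the 3 floxed arrays lie between them.

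The wider spread of the controls ran through the family. For 9 of 10 members the control SD was larger than the floxed SD, as for 73.6% of all genes tested, with medians of 0.22 and 0.11 log2 for the members and 0.23 and 0.14 for all genes. Control replicate 1 held the lowest value of 4 members and the highest of 3. The lowest value of 3 others was on control replicate 3. Of the 30 values of the members on floxed arrays, 21 lay inside the range of the 3 controls. The markers of other cells moved between arrays too. All 11 tested of 12 granulocyte and macrophage markers were lower in floxed arrays, with a median of −0.33 log2, and 0 passed in limma. The largest differences among them were those of Mmp8 (−1.03) and Ngp (−0.88), genes of neutrophil granules. Their mean deviation was 0.49, 0.51 and −0.38 log2 in controls against −0.46, −0.39 and 0.24 in floxed arrays, so the groups overlapped. Of 8 tested of 10 erythroid and megakaryocyte markers 7 were lower (median −0.18), with mean deviations of 0.01 to 0.19 in controls and −0.25 to 0.19 in floxed arrays. Of 5 tested of 8 T and NK cell markers 4 were lower (median −0.17; 0.06 to 0.15 against −0.35 to 0.15). Of 6 tested of 7 stromal and endothelial markers 4 were lower (median −0.015; −0.15 to 0.20 against −0.10 to 0.05). Of the 7 B cell markers 4 were lower (median −0.068). The part of these cells in the values of the members was not tested.

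**Figure D3:**
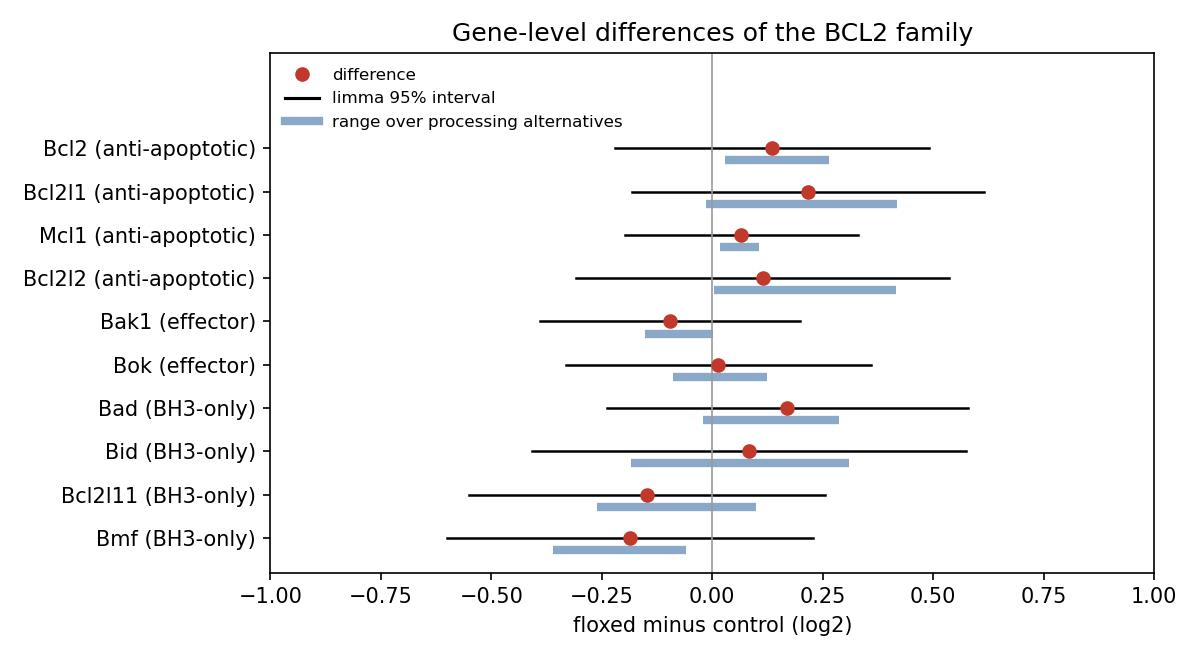
For each BCL2 family member the red point is the floxed minus control difference of the gene value in log2, the black line its 95% limma confidence interval and the blue bar the range of the difference over the processing alternatives (16, or 15 for Bcl2l2, Bad and Bmf). All 10 intervals include 0, and the blue bars of Bcl2l1, Bak1, Bok, Bad, Bid and Bcl2l11 reach both sides of it.

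The choice of probe sets moved some members more than the groups did. Of the 80 probe sets 53 were bright enough to be tested and 27 were not; Mcl1, Bak1 and Bid kept all of theirs. The 95th percentile of 1210 olfactory receptor probe sets, genes largely silent in blood cells, was 6.43 log2, and 68 of the 80 lay above it. Bcl2l1 had 17 probe sets, 7 of them tested. With all 17, its gene value was 7.17, 7.19 and 7.13 log2 in controls against 7.48, 7.50 and 7.77 in floxed arrays, so the groups were apart, with a difference of 0.42 (limma adjusted p = 0.915 over 20352 genes). The 3 controls then lay within 0.055 log2, while their values on the 7 brighter probe sets spanned 8.12 to 8.63. How many of all genes or probe sets were apart without the filter was not counted. Of the 10 dimmer probe sets 7 were higher and 3 lower in floxed arrays, from −0.72 to 0.76. On 2 of the 10 the groups were apart, with floxed arrays higher (0.47 and 0.69, with margins to the filter of −0.19 and −0.25). Both lay above the olfactory receptor level, and 6 of the 10 lay below it. With the filter at that level the Bcl2l1 difference was 0.071, and with the filter at the 75th percentile it was −0.015. Bcl2l2, with 3 of 7 probe sets tested, had 0.11 with the filter and 0.42 without it (limma adjusted p = 0.915).

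Single probe sets read different stretches of a transcript and were also tested one by one. Of the 53 tested, 0 passed in limma (smallest adjusted p = 0.975), and 1 had an unadjusted p under 0.05, or 1.89% against 4.35% of all probe sets. The groups were apart on 3 of the 53, or 5.66% against 9.45%. In the family 27 differences were positive and 26 negative, with a median of 0.0066 log2, while 58.8% of all tested probe sets were higher in floxed arrays. The probe set with the small p belonged to Bcl2, the 6th of its 9 in probe-set number. It read 11.34, 11.69 and 11.33 log2 in controls against 10.99, 10.91 and 11.23 in floxed arrays. Each floxed array was below each control on it, and the difference was −0.41 (SE 0.15, limma 95% interval −0.74 to −0.081, adjusted p = 0.975). The probe sets on either side of it in number had 0.31 and 0.29, and the 4th probe set, also apart, had −0.23. The gene value of Bcl2, at 0.13, thus joins probe sets whose differences ran from −0.41 to 0.31.

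Among the other genes, Bak1 was lower on 7 of 8 probe sets, from −0.23 to 0.0066 log2, and apart on the 3rd (−0.14). Bcl2l11 had the widest span, −0.31 to 0.48 over 9 probe sets. The upper end was its 12th probe set, with a control SD of 0.58 and a value of 6.74 on control replicate 3 against 7.46 and 7.90 on the other controls. The 5 probe sets of Mcl1 ran from −0.09 to 0.24 and the 7 of Bid from −0.13 to 0.13. Bcl2l2 and Bad were higher on all 3 of their tested probe sets, by 0.14 to 0.19 and by 0.09 to 0.26. Bmf ran from −0.26 to 0.05 over 3 probe sets and Bok from −0.0039 to 0.03 over 2. Limma's diffSplice test asks whether the probe sets of a gene differ in their change. It called 0 of the 10 members (0 with an unadjusted p under 0.05; smallest adjusted p = 1), where 2 of 11831 genes passed (0.0169%) and 1.52% of all genes had an unadjusted p under 0.05.

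**Figure D4:**
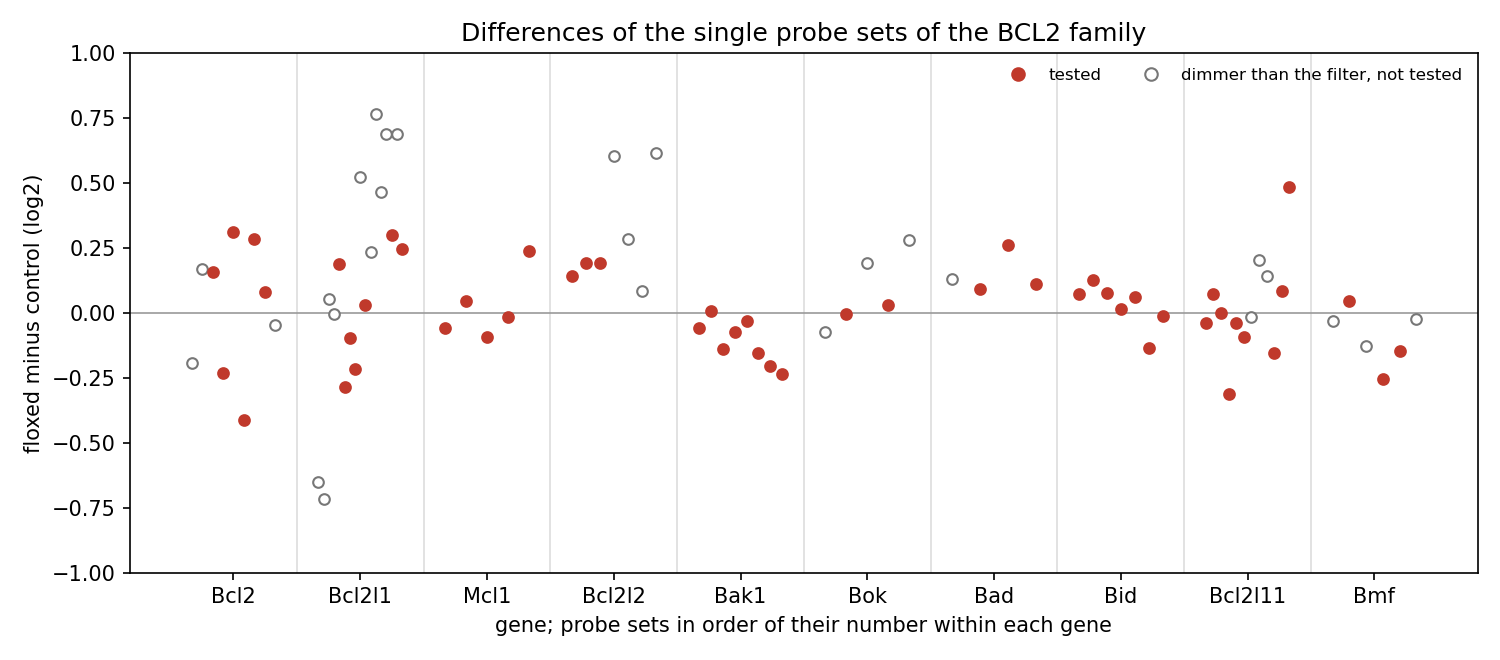
Each point is 1 probe set of a BCL2 family gene, in order of probe-set number within its gene, and the vertical axis gives floxed minus control in log2. Red points were tested (53) and open points were dimmer than the filter (27); differences beyond 0.5 in either direction are all on open points, and no red point passed.

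Around the family, 63 genes were listed in 4 groups and 53 of them could be tested; 0 passed in limma, as in the whole table, and 3 had an unadjusted p under 0.05 (5.66% against 3.7% of all genes), all higher in floxed arrays. Groups were apart for 6 of the 53 (11.3%), all with floxed arrays higher, against 8.44% of all genes in either direction and 5.57% with floxed arrays higher. The lists were chosen with earlier results of these data known. The list of further BCL2 family genes also held genes at its edge, Becn1, Bnip3 and Bnip3l. Of its 10 tested genes, 4 were higher and 6 lower, with a median of −0.032 log2 and 0 at an unadjusted limma p under 0.05. Becn1, whose product binds BCL2 and starts autophagy, had 0.19 (SE 0.15), and Bcl2l14 had −0.21 (SE 0.19). The BH3-only gene Hrk had −0.15 (SE 0.16), and Bnip3l, whose product directs mitochondria to autophagy, had −0.059 (SE 0.14).

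Of 15 genes of the apoptosome, the caspases and the inhibitors of apoptosis, 8 were higher and 7 lower, with a median of 0.0082 log2. Birc2, which encodes the ubiquitin ligase cIAP1, read 8.65, 8.47 and 8.39 log2 in controls against 8.96, 9.05 and 8.93 in floxed arrays. The groups were apart, with a difference of 0.48 (SE 0.15, limma adjusted p = 0.999). Birc5, which encodes survivin, a protein of dividing cells, had a mean of 8.90 ± 0.09 (SD, n = 3) in controls and read 9.10, 9.34 and 9.33 in floxed arrays. Its groups were apart as well, with a difference of 0.35 (SE 0.14, limma adjusted p = 0.999). Cycs, encoding cytochrome c, had 0.17 (SE 0.15) and Casp8, the initiator caspase that cleaves BID, had −0.10 (SE 0.11).

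Partners and regulators of the family were mostly on the higher side. Of 19 tested, 17 were higher and 2 lower, with a median of 0.0998 log2, against 54.2% of all genes higher; no test was made of this list. Vdac3, a channel of the outer mitochondrial membrane, had 0.29 (SE 0.13, limma adjusted p = 0.999) and Bag1, a co-chaperone that binds BCL2, had 0.37 (SE 0.18). Ywhaz, a 14-3-3 protein of the kind that holds phosphorylated BAD, had 0.054 (SE 0.094), and Dynll1, a dynein light chain that binds BIM, had 0.11 (SE 0.11). The mean deviation of the 19 genes was −0.038, −0.017 and −0.12 log2 in controls against 0.11, 0.013 and 0.047 in floxed arrays. Each floxed array was thus above each control, though control replicate 2 and floxed replicate 2 lay close. The means of the other pathway lists overlapped between the groups. How often the mean of a list of this size is apart was not counted. In the death receptor pathway 7 of 10 genes were higher and 3 lower, with a median of 0.085. Ripk1, encoding a kinase of the TNF receptor complex, had 0.29 (SE 0.14) and was apart, and Cflar, which encodes the caspase 8 inhibitor c-FLIP, had 0.36 (SE 0.20). Tnfrsf1a, the TNF receptor gene, had 0.19 (SE 0.15) and was apart too. The death receptor list also holds Casp8.

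The genes whose values followed a member most closely over the 6 arrays were sought among 14008 named genes. For Bcl2 they were Dhodh (Pearson r = 0.980), Angptl6 (0.976) and Nbeal2 (0.975). For Bcl2l1 they were Cbr2 (0.992), Kidins220 (0.978) and Pnlip (0.977). Those nearest to Mcl1 were Cplx2 (0.997), Slk (0.983) and Krt33b (0.980). These are the highest values of a search over 14008 genes with only 6 arrays. Of the 14008, 56, 69 and 50 genes had r above 0.9 with Bcl2, Bcl2l1 and Mcl1. How many would do so by chance was not tested. These 9 genes are given as a description, and their arrays share whatever separates the samples.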

How the data were processed

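RNA of the sorted cells was extracted with TRIzol and made into biotinylated cRNA by an Affymetrix protocol, per the labels' protocols. The deposited values are log2 expression per probe set, from 2.44 to 14.53; the base was taken from the values. MAS5 is named in the submitters' processing notes without a role; the normalization is not given in the sources used here. Array medians were 7.56 to 7.65 and no further normalization was applied. No detection calls were used. Precision is limited by the number of arrays.

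In the platform annotation 212097 probe sets had 1 symbol, 4475 had several and 25004 had none; only those with 1 were used for genes. Symbols were updated through RefSeq GRCm38.p6 (17621 current, 2742 updated, 53 unmatched). Probe sets with a mean of at least the median, 7.60 log2, were kept (120788, of which 110361 had 1 gene), and a gene value is the median of its kept probe sets (14586 genes). Genes and probe sets were tested in R 4.3.3 with limma 3.58.1 (lmFit, eBayes with trend, two-sided, Benjamini-Hochberg over all tested, threshold 0.05); diffSplice tested unequal probe-set differences. The steps were tested on simulated data with noise drawn independently for each probe set and array. The gene test kept its error rate there. Deviations shared by the probe sets of a gene on an array were not simulated, so the error rate with them is not known. In the simulation the diffSplice test called too many genes where noise differed between the probe sets of a gene. On the arrays only 1.52% of genes had an unadjusted diffSplice p under 0.05. Its error rate on these data is thus not known.

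The members and lists were chosen with earlier results of these data known. Named were all members, Ctnnb1, and from each of 4 pathway lists the 2 genes of smallest p and the 2 of highest mean, and the 3 genes most like Bcl2, Bcl2l1 and Mcl1; Bak1, Bcl2 and Bcl2l11 probe sets named by place and marker genes with a level were chosen with their values seen. Alternatives were dropping the filter, moving it to the 75th percentile or to the olfactory receptor level, quantile normalization, equal array medians, a mean in place of the median over probe sets, robust or trend-free eBayes, weighted arrays, a replicate block and leaving out each array, which was repeated, after the data were seen, on the probe sets of all 6 arrays.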

Additional observations from a re-analysis of the deposited data

How the results depend on the processing

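No member passed under any of the 16 alternatives (smallest limma adjusted p = 0.167, for Bmf with array weights, difference −0.36). Bcl2, Mcl1, Bcl2l2 and Bmf kept the sign of their difference wherever they were tested; the 75th percentile filter left out Bcl2l2, Bad and Bmf. Of 157 recomputed differences of single members, 14 turned sign. Bok had −0.023 with quantile normalization, −0.017 with equal medians, −0.0039 with the 75th percentile filter and −0.080 with array weights. Bcl2l11 had 0.099 with no filter and 0.099 with the olfactory receptor filter. At the 75th percentile Bcl2l1 had −0.015 and Bid −0.0093, and with array weights Bad had −0.021. Leaving out 1 array gave −0.013 to 0.22 for Bcl2l1, −0.15 to 0.00059 for Bak1, −0.088 to 0.085 for Bok (−0.026 without floxed replicate 2, on either choice of probe sets), −0.19 to 0.31 for Bid, −0.26 to −0.0033 for Bcl2l11, −0.27 to −0.059 for Bmf, 0.029 to 0.26 for Bcl2 and 0.0049 to 0.17 for Bcl2l2. Leaving out an array also set the filter again; on the probe sets of all 6 arrays, an alternative chosen after seeing the data, the range of Bcl2l1 was 0.088 to 0.34 and no member passed.

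The median over members was −0.0093 with the 75th percentile filter, where 2 of 7 were higher, 0.023 with the mean of probe sets, −0.0021 with array weights and 0.013 to 0.082 without 1 array. The lowest of these was without control replicate 1, and it was 0.025 without control replicate 3. All genes passing numbered 2 with no filter (Mup10 and Sva), 1 with the olfactory receptor filter (Sva), 1 with the mean of probe sets (Ctnnb1), 404 with array weights, none of them a member, and 0 to 2 without 1 array (Rny1 and Rab9, without control replicate 1). The causes were not tested. No member probe set passed in 15 alternatives, nor any member in diffSplice in 13. The smallest unadjusted diffSplice p of a member was 0.014 with no filter and 0.047 without control replicate 3. It was above 0.05 in the other alternatives, and the shares of all genes were not counted there.

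With the replicate number as a block 0 genes passed and Bcl2l1 had 0.22 (limma adjusted p = 0.9995). Deviations from the group mean of each gene correlated across genes at 0.198, −0.004 and −0.243 for same-numbered arrays. Pairs of unlike number ran from −0.29 to 0.287. Centring on 3 arrays ties these values to one another, so they cannot show whether same-numbered arrays share a batch. Dim probe sets limit Bcl2l1, Bcl2l2 and Bok most, with 10 of 17, 4 of 7 and 3 of 5 below the filter.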
